A study of Mus musculus with 9 samples.

Results

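Complex I of the mitochondrial respiratory chain is built from subunits encoded in the nucleus and in mitochondrial DNA, and the nuclear subunit genes are described here in germ cells of male mice that lack ClpP or ClpX. The members are 35 genes, taken by symbol from the 54532 genes of the deposited expression table. Of these, 34 had a mean FPKM (reads per kilobase of gene length, scaled for library size) of at least 1 over the 9 libraries and were tested, and Ndufb2 lay below that limit. RNA was sequenced from cells titled spermatocytes and labelled as male germ cells, in 3 control, 3 ClpP conditional knockout (cKO) and 3 ClpX cKO libraries, all labelled PD 35. The knockouts were made in male germ cells with the Cre driver Stra8-Cre, and the controls are labelled WT with no further allele given. In mitochondria the proteolytic core ClpP degrades matrix proteins, which its partner ClpX unfolds at the cost of ATP and feeds into it. The study asked how the loss of either affects mitochondria and mTORC1 signalling during spermatogenesis. No label ties the libraries to separate animals, so that the p-values reflect the spread among these libraries, which may be technical.

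Libraries held 14334436 to 17021685 gene reads. Clpp was at 3.69 to 6.15 FPKM in ClpP cKO against 8.46 to 9.36 in control, and Clpx was at 11.3 to 15.6 in ClpX cKO against 54.7 to 59.3. Clpx was also lower in ClpP cKO (a call lost under quantile normalization), at 35.99 to 40.3. Clpp was higher in ClpX cKO, at 12.5 to 14.1 (log2 change 0.49, limma adjusted p = 0.014). On the first principal component Control 3 and ClpX cKO 1 lay closer to the other groups than their own replicates did. Markers of somatic cells and of spermatids were present in the controls. The 12 Sertoli cell markers summed to 536 to 564 FPKM in control and the 11 elongating spermatid markers to 8183 to 17916, with no listed marker at 0 in any library.

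Complex I is the largest enzyme of the respiratory chain. It takes electrons from NADH, passes them through a flavin and a row of iron-sulfur clusters in its matrix arm to ubiquinone, and couples this to proton pumping by its membrane arm. The core subunits of the matrix arm are nuclear, those of the membrane arm are encoded in mitochondrial DNA, and the accessory subunits that surround both are nuclear. Germ cells that enter meiosis come to depend more on oxidative phosphorylation, and dedicated assembly factors join the subunits into modules.

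The 250 bases upstream of the RefSeq start (GRCm38.p6) were searched on both strands for 8 motifs in 32 of the 35 members, with all 27025 genes of the promoter table as background. The NRF1 motif, which is GCGC, 2 bases of any kind and GCGC again, bound by a regulator of nuclear genes for mitochondrial proteins, was found in 8 of 32 members (25%) and in 5.64% of all genes. The cyclic AMP response element (CRE) TGACGTCA was found in 3 members, Ndufa10, Ndufa11 and Ndufb2 (9.38%, against 1.77%). The SP1 motif GGGCGG was found in 14 members (43.8%, against 35.4%), CCAAT in 10 (31.2%, against 37.5%) and the ETS motif CCGGAAG in 3 (9.38%, against 7.83%). CAAGGTCA, the motif of oestrogen-related receptors, was found in Ndufs5 (3.12%, against 1.51%). The letters AAGATGGCG (YY1) and TGATGNAAT (ATF4) were not found in these windows of any member (0.71% and 0.91% of all genes). Median GC content was 57.8% in the members and 52.4% in all genes. The 6 promoters printed here are those of Ndufa10, Ndufa11, Ndufv2, Ndufb4 and the X-linked pair Ndufa1 and Ndufb11. Ndufa10 was called higher in both knockouts and Ndufa11 in ClpX cKO only, and both carry a CRE. Ndufb2, which also carries a CRE, was not tested for change. On the deposited scale Ndufv2 was called lower in both knockouts and Ndufb4 in ClpP cKO only, and both carry NRF1 motifs. Under quantile normalization neither was called. With libraries scaled to their own total of reads, Ndufv2 alone was called, in ClpX cKO. An NRF1 match was also found in Ndufa11 and in Ndufab1, both higher in ClpX cKO. It lay as well in Ndufa5, lower there, and in Ndufa8, Ndufs5 and Ndufs6, not called on the deposited scale. Whether motifs go with direction was not tested. The promoter of Ndufa10 lies at chr1:92473759-92474008, reverse strand, and that of Ndufa11 at chr17:56717512-56717761, forward strand. Those of Ndufv2 and Ndufb4 lie at chr17:66101560-66101809, reverse strand, and chr16:37654369-37654618, reverse strand. Those of Ndufa1 and Ndufb11 lie at chrX:37191239-37191488, reverse strand, and chrX:20617620-20617869, reverse strand. Capitals mark the matched motifs, read on either strand, and the 12 capitals near the end of Ndufv2 hold 2 overlapping NRF1 matches.
Ndufa10: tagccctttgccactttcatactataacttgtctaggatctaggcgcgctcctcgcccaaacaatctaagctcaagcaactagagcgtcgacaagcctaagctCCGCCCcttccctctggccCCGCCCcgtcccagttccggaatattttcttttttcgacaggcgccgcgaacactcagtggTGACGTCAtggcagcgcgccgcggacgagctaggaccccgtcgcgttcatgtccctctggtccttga
Ndufa11: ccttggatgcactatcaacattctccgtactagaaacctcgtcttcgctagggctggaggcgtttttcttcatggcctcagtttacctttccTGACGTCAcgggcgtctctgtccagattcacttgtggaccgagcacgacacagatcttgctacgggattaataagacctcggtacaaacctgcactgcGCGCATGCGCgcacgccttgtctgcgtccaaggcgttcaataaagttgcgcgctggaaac
Ndufv2: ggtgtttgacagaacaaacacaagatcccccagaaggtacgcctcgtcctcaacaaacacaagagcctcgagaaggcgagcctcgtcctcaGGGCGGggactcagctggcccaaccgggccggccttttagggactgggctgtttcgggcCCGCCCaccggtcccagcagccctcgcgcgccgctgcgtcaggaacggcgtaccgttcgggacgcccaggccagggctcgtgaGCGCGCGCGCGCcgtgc
Ndufb4: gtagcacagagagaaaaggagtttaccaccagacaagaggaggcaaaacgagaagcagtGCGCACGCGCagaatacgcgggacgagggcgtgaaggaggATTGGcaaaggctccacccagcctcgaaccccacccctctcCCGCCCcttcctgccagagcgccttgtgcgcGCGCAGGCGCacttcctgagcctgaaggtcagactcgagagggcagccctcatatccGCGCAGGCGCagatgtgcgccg
Ndufa1: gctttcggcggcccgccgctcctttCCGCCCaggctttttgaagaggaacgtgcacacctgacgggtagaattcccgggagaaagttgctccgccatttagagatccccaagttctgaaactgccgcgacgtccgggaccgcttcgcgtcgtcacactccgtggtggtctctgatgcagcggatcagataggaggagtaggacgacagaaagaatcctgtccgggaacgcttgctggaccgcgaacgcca
Ndufb11: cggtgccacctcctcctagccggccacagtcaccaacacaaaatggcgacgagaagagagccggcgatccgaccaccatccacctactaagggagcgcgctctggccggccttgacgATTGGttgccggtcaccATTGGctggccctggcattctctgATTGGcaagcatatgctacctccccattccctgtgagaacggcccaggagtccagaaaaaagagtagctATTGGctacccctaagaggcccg

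In control libraries the members spanned a wide range of levels, from Ndufb2 at 0.639 to 0.769 FPKM to Ndufa2 at 81.3 to 109. Over all 9 libraries the 4 highest means were those of Ndufa2, Ndufv2, Ndufs5 and Ndufb10, and 31 of 35 members had a mean above 10 FPKM. Ndufs5, an intermembrane space subunit, was at 50.9, 49.5 and 49.7 FPKM in the control libraries, 50.6, 46.8 and 48.7 in ClpP cKO and 49.6, 48.2 and 53.8 in ClpX cKO. Ndufb10, of the distal membrane arm, was at 50.7, 52.98 and 49.9 FPKM in the control libraries, 45.9, 47.1 and 44.2 in ClpP cKO and 42.2, 49.2 and 47.6 in ClpX cKO. Neither was called in either knockout, and the levels of Ndufs5 overlapped between all groups while all 6 knockout libraries lay below the controls for Ndufb10 on the deposited scale. Under quantile normalization the log2 change of Ndufb10 in ClpX cKO was 0.28 and called as higher. Ndufs5 was called as higher under quantile normalization in ClpP cKO (0.26) and in ClpX cKO. In ClpX cKO it was also called as higher with libraries scaled to their own total of reads. Ndufs5 and Ndufb10 are neighbours in the order and overlapped in control. The 4 lowest means were those of Ndufb2, Ndufab1, Ndufv3 and Ndufb7. Ndufb7, of the distal membrane arm, was at 10.6, 9.41 and 8.73 FPKM in the control libraries, 7.47, 9.04 and 8.87 in ClpP cKO and 9.03, 9.31 and 10.2 in ClpX cKO. Ndufv3, beside the flavin-bearing subunit, was at 7.54, 7.23 and 7.13 FPKM in the control libraries, 6.56, 6.81 and 7.38 in ClpP cKO and 6.67, 7.46 and 7.86 in ClpX cKO. Both stayed within overlapping ranges, and so did Ndufb2, which rested on only 49 to 84 reads per library and was at 0.769, 0.756 and 0.639 FPKM in the control libraries, 0.741, 0.754 and 0.706 in ClpP cKO and 0.854, 0.741 and 0.875 in ClpX cKO.

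The order of levels depended on the length by which reads were divided. The deposited length of Ndufb2 is 5628 bases, that of Ndufab1 6883 and that of Ndufb7 4522, which are summed exon lengths over all transcripts of a gene. Dividing the same control reads by the median length of the annotated coding transcripts raised Ndufb7 to 69.6 per kilobase, and Ndufa7 (149.8), Ndufb5 (125.8), Ndufv2 (124.9) and Ndufa6 (124.9) then came highest. Ndufb2 was still lowest at 1.68 on that scale. The spread between the control libraries was small for most members, with a median coefficient of variation of 6.81%, and largest for Ndufa12 at 36.4%, Ndufs4 at 32.5% and Ndufa13 at 26.9%.

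**Figure D1:**
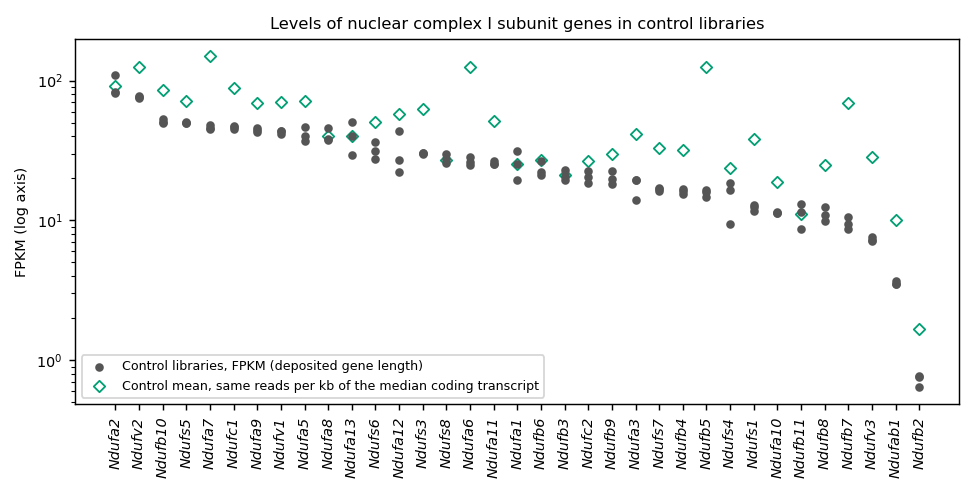
FPKM of the 35 nuclear complex I subunit genes in the 3 control libraries (filled points, log axis), ordered by control mean, with the control mean of the same reads divided by the median length of the coding transcripts (open diamonds). Ndufb2 is lowest on both scales, while Ndufb7 and Ndufb5 move up when the shorter length is used.

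In ClpP cKO, 3 members rose (Ndufa10, Ndufa2 and Ndufc2) and 5 fell (Ndufa12, Ndufa7, Ndufc1, Ndufv2 and Ndufb4), of which Ndufa7, Ndufc1 and Ndufv2 lay above 0 under quantile normalization. That is 8 of 34, where 44.7% of all 17266 genes tested were called in this comparison (20.7% higher and 24% lower) and 49.3% of protein-coding genes. In ClpX cKO, 7 members rose (Ndufa1, Ndufb11, Ndufa10, Ndufc2, Ndufa11, Ndufab1 and Ndufs7) and 6 fell (Ndufa13, Ndufv2, Ndufa7, Ndufa5, Ndufc1 and Ndufb5), of which Ndufa7, Ndufa5 and Ndufc1 lay above 0 under quantile normalization and Ndufc1 and Ndufb5 with libraries scaled to their own total of reads. That is 13 of 34, against 65.6% of all genes (32.1% higher and 33.5% lower) and 70.6% of protein-coding genes. Called means a Benjamini-Hochberg adjusted p under 0.05 over all genes tested in limma, fitted to log2(FPKM + 1), and all log2 changes are on that scale, which understates changes of low genes. Changes of at least 1.5-fold were called for 1 of 34 members in ClpP cKO (Ndufa12) and 2 of 34 in ClpX cKO (Ndufa1 and Ndufa13), against 15.2% and 36.7% of all genes. Log2 changes ran from -0.79 to 0.44 in ClpP cKO (median -0.0074, all genes 0.015) and from -0.62 to 0.71 in ClpX cKO (median 0.0061, all genes -7.7e-04). Knockout and control ranges were fully separate for 11 of 34 members in ClpP cKO and 16 of 34 in ClpX cKO, against 61.7% and 69.8% of all genes. Both comparisons use the same 3 control libraries.

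**Figure D2:**
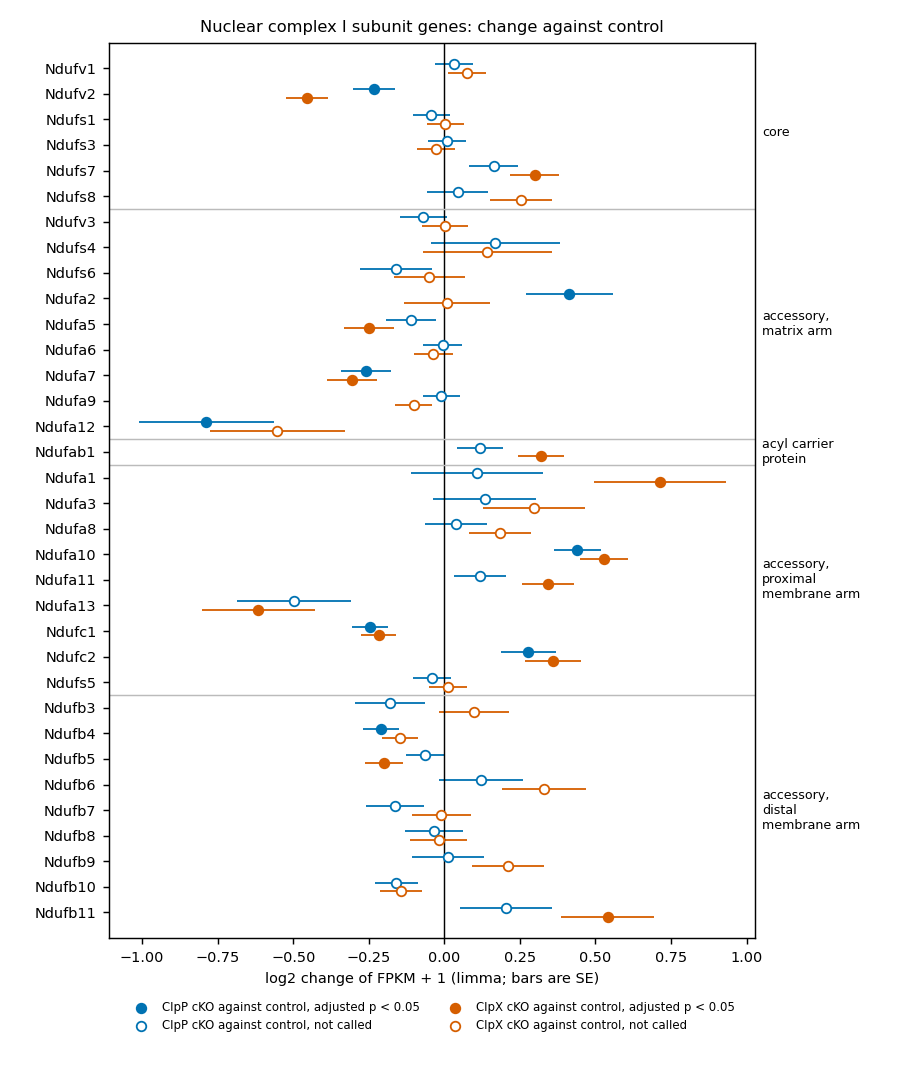
Log2 change of FPKM + 1 against control (points; bars are SE, limma) for the 34 tested members, grouped by place in the complex, with ClpP cKO in blue and ClpX cKO in orange. Filled points are called, 8 in ClpP cKO and 13 in ClpX cKO, of which 1 and 2 reach 1.5-fold.

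Markers of other cell types and stages moved with the groups as well. Of all genes tested, 44.7% were called in ClpP cKO and 65.6% in ClpX cKO. In ClpP and ClpX cKO all 11 tested Sertoli cell markers rose (median log2 change 0.54 and 0.99; 10 of 11 called in ClpP cKO under quantile normalization), with summed FPKM of 768 to 857 and 967 to 1349. All 11 elongating spermatid markers fell (medians -1.30 and -2.33), with sums of 4727 to 5630 and 1733 to 2655. All 7 round spermatid markers fell as well (medians -0.78 and -1.24; 2 of 7 and 6 of 7 called under quantile normalization), with sums of 705 to 808 in control, 358 to 472 in ClpP cKO and 226 to 399.8 in ClpX cKO. Of 7 spermatogonial markers 5 and 7 rose (sums 58.2 to 66.9, 78.9 to 91.9 and 92.5 to 119.7). Of 6 tested immune markers 3 and 6 rose (sums 34.6 to 40.6, 44.5 to 66.3 and 65.4 to 80.3), of 7 tested peritubular and stromal markers 2 and 5 (sums 61.1 to 94.5, 82.1 to 105 and 94.3 to 148) and of 7 Leydig cell markers 0 and 2 (sums 202 to 400.1, 369 to 533 and 349 to 529). Of 9 markers of meiotic prophase 2 rose and 3 fell in ClpP cKO and 3 rose and 3 fell in ClpX cKO, against 5 up and 2 down in each under quantile normalization (sums 891 to 958, 720.1 to 763 and 606 to 691). The part of these markers in the changes of the members was not tested. In bulk RNA, fewer cells of a type and less RNA per cell cannot be told apart.

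Among the 6 core subunits of the matrix arm, Ndufv2 fell in both knockouts (above 0 in ClpP cKO under quantile normalization) and Ndufs7 rose in ClpX cKO. Ndufv2 (ENSMUSG00000024099, chromosome 17, 66078638 to 66101559, reverse strand), an iron-sulfur subunit beside the flavin site, was at 76.9, 75.01 and 77.2 FPKM in the control libraries, 66.9, 66.1 and 61.6 in ClpP cKO and 59.8, 51.97 and 54.9 in ClpX cKO. All 6 knockout libraries lay below every control, and the ClpX cKO libraries below those of ClpP cKO. The log2 change was -0.45 ± 0.07 (SE; limma adjusted p = 7.9e-04) in ClpX cKO and -0.23 ± 0.07 (SE; limma adjusted p = 0.027) in ClpP cKO, but under quantile normalization it was -0.012 and 0.11, neither called, and with libraries scaled to their own totals -0.23 (called) and -0.05 (not called). The ClpP cKO call was also lost without Control 1 (-0.23), Control 2 (-0.25), Control 3 (-0.23), ClpP cKO 2 (-0.25) or ClpP cKO 3 (-0.20). Ndufs7 (ENSMUSG00000020153, chromosome 10, 80249121 to 80256794, forward strand), which carries the last iron-sulfur cluster before ubiquinone, was at 17.2, 16.2 and 16.9 FPKM in the control libraries, 18.5, 19.98 and 18.1 in ClpP cKO and 18.6, 21.2 and 22.8 in ClpX cKO. The knockout libraries all lay above the controls. It rose by 0.30 ± 0.08 (SE; limma adjusted p = 0.011) in ClpX cKO, a call kept under all 21 alternatives, and the value in ClpP cKO was 0.16 ± 0.08 (SE; limma adjusted p = 0.13). The other 4, Ndufv1, Ndufs1, Ndufs3 and Ndufs8, were not called, with log2 changes of -0.04 to 0.04 in ClpP cKO and -0.03 to 0.25 in ClpX cKO.

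Of the 9 accessory subunits of the matrix arm, 1 rose and 2 fell in ClpP cKO and 2 fell in ClpX cKO. Of all genes, 44.7% and 65.6% were called in these comparisons. Ndufa12 (ENSMUSG00000020022, chromosome 10, 94198720 to 94221443, forward strand), the accessory subunit bound on the matrix side of the core, had the widest spread of all members in control and was at 26.97, 43.5 and 22.02 FPKM in the control libraries, 16.2, 14.9 and 19.3 in ClpP cKO and 23.2, 18.02 and 18.7 in ClpX cKO. It fell by 0.79 on the log2 scale (SE of 0.22 and adjusted p of 0.023) in ClpP cKO, with every library below the controls, and stood at -0.55 ± 0.22 (SE; limma adjusted p = 0.055) in ClpX cKO, where ClpX cKO 1 lay above Control 3. The ClpP cKO call was lost without ClpP cKO 1 (-0.77) or ClpP cKO 2 (-0.71). Its processed pseudogene Gm15920 shares 99.5% of 402 aligned bases and was at 60.98, 22.1 and 49.5 FPKM in the same controls, low in Control 2 where Ndufa12 was high. Counted together with this copy, the log2 ratio of mean scaled reads to control was -0.61 in ClpP cKO and -0.53 in ClpX cKO, against -0.87 and -0.63 for Ndufa12 alone, and its values are uncertain to that extent.

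Ndufa7 (ENSMUSG00000041881, chromosome 17, 33824591 to 33838316, forward strand) was at 48.4, 45.2 and 45.9 FPKM in the control libraries, 38.02, 40.1 and 37.9 in ClpP cKO and 40.2, 32.8 and 39.7 in ClpX cKO. Its 6 knockout libraries lay below every control. The log2 change was -0.26 ± 0.08 (SE; limma adjusted p = 0.035) in ClpP cKO and -0.31 ± 0.08 (SE; limma adjusted p = 0.011) in ClpX cKO, and under quantile normalization it turned to 0.028 and 0.094, while own-total scaling gave -0.079 and -0.086, none of them called. In ClpP cKO the call was lost without any 1 of the 6 libraries compared, with values from -0.29 without ClpP cKO 2 to -0.23 without Control 1. Ndufa5 (ENSMUSG00000023089, chromosome 6, 24518666 to 24528013, reverse strand), near the ubiquinone end of the matrix arm, was at 46.4, 37.1 and 40.3 FPKM in the control libraries, 38.6, 38.1 and 37.4 in ClpP cKO and 35.6, 34.99 and 32.8 in ClpX cKO. Only the ClpX cKO libraries were separate from the controls. It fell by 0.25 (SE of 0.08 and adjusted p of 0.028) there, against -0.11 ± 0.08 (SE; limma adjusted p = 0.3) in ClpP cKO, but was at 0.12 under quantile normalization and -0.03 with own-total scaling, neither called. That call was also lost without Control 1 (-0.16), ClpX cKO 2 (-0.26) or ClpX cKO 3 (-0.21).

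Ndufa2 (ENSMUSG00000014294, chromosome 18, 36742332 to 36744557, reverse strand), a small subunit with a thioredoxin-like fold, was at 109, 83.2 and 81.3 FPKM in the control libraries, 117, 104 and 144 in ClpP cKO and 91.9, 85.2 and 95.8 in ClpX cKO. ClpP cKO 3 was the highest library, and ClpP cKO 2 lay below Control 1. The log2 change was 0.41 ± 0.14 (SE; limma adjusted p = 0.044) in ClpP cKO and 0.01 ± 0.14 (SE; limma adjusted p = 0.96) in ClpX cKO. Under quantile normalization it was 0.81 and 0.52, called as higher in both, and with own-total scaling 0.60 (called) and 0.23 (not called). On the deposited scale the call in ClpP cKO was lost without Control 2 (0.35), Control 3 (0.34), ClpP cKO 1 (0.43), ClpP cKO 3 (0.29) or any ClpX cKO library (0.41 in each case). Its exons share 66 bases with Tmco6 on the other strand, which was at 3.50, 3.57 and 3.795 FPKM in the control libraries, 7.84, 4.78 and 6.83 in ClpP cKO and 4.87, 4.31 and 5.06 in ClpX cKO, and the strand setting of the counting is not given in the sources used here. The other 5, Ndufv3, Ndufs4, Ndufs6, Ndufa6 and Ndufa9, were not called, at -0.16 to 0.17 in ClpP cKO and -0.10 to 0.14 in ClpX cKO.

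Ndufab1 (ENSMUSG00000030869, chromosome 7, 122085403 to 122101886, reverse strand), the mitochondrial acyl carrier protein that also serves fatty acid and lipoic acid synthesis, was at 3.50, 3.49 and 3.69 FPKM in the control libraries, 3.86, 3.997 and 3.98 in ClpP cKO and 4.27, 4.81 and 5.02 in ClpX cKO. Each ClpX cKO library was above each ClpP cKO library, and those above each control. It rose by 0.32 ± 0.08 (SE; limma adjusted p = 0.0058) in ClpX cKO, kept under all 20 alternatives in which it was tested, and the value in ClpP cKO was 0.12 ± 0.08 (SE; limma adjusted p = 0.23). Its pseudogenes Gm4459 and Ndufab1-ps are 99.8% and 99.4% identical to it over 468 and 469 aligned bases. Counted together with them, the log2 ratio of mean reads was 0.39 in ClpX cKO and 0.14 in ClpP cKO.

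Of the 9 accessory subunits of the proximal membrane arm, 2 rose and 1 fell in ClpP cKO and 4 rose and 2 fell in ClpX cKO, so that 3 of 9 and 6 of 9 were called where 44.7% and 65.6% of all genes were. Ndufa10 (ENSMUSG00000026260, chromosome 1, 92439010 to 92473860, reverse strand), which has a fold like that of nucleoside kinases, was at 11.6, 11.2 and 11.2 FPKM in the control libraries, 15.03, 15.9 and 16.3 in ClpP cKO and 15.1, 16.8 and 18.6 in ClpX cKO. The 3 controls were close together and all 6 knockout libraries lay above them. It rose by 0.44 ± 0.08 (SE; limma adjusted p = 0.0086) in ClpP cKO and 0.53 ± 0.08 (SE; limma adjusted p = 7.2e-04) in ClpX cKO, and both calls were kept under all 21 alternatives. Ndufc2 (ENSMUSG00000030647, chromosome 7, 97400003 to 97407802, forward strand), a membrane-anchored subunit, was at 20.5, 22.4 and 18.4 FPKM in the control libraries, 23.4, 26.5 and 24.8 in ClpP cKO and 26.4, 24.3 and 28.7 in ClpX cKO. Again every knockout library was above every control. The log2 change was 0.36 ± 0.09 (SE; limma adjusted p = 0.0083) in ClpX cKO, kept under all 21 alternatives, and 0.28 ± 0.09 (SE; limma adjusted p = 0.038) in ClpP cKO, where the call was lost without Control 1 (0.28), Control 3 (0.21), ClpP cKO 2 (0.23) or ClpP cKO 3 (0.28), and also with voom on recovered reads (0.28). Ndufa11 (ENSMUSG00000002379, chromosome 17, 56717767 to 56722141, forward strand), a membrane-spanning subunit, was at 25.2, 26.6 and 25.3 FPKM in the control libraries, 28.4, 27.7 and 27.8 in ClpP cKO and 29.9, 31.4 and 37.8 in ClpX cKO. It rose by 0.34 ± 0.09 (SE; limma adjusted p = 0.0076) in ClpX cKO, kept under all 21 alternatives, and the value in ClpP cKO was 0.12 ± 0.09 (SE; limma adjusted p = 0.28). Its exons share 70 bases with Vmac on the other strand, which was at 1.87, 2.98 and 2.08 FPKM in the control libraries, 3.08, 3.94 and 3.23 in ClpP cKO and 4.43, 3.802 and 4.78 in ClpX cKO.

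The decreases in this arm were those of Ndufc1 and Ndufa13. Ndufc1 (ENSMUSG00000037152, chromosome 3, 51404677 to 51408988, reverse strand), a small membrane subunit, was at 47.1, 44.8 and 46.3 FPKM in the control libraries, 38.3, 40.2 and 37.7 in ClpP cKO and 40.3, 37.8 and 40.3 in ClpX cKO. The 6 knockout libraries lay below the controls and overlapped each other. Its log2 change was -0.25 ± 0.06 (SE; limma adjusted p = 0.014) in ClpP cKO and -0.22 ± 0.06 (SE; limma adjusted p = 0.011) in ClpX cKO, but 0.044 (not called) and 0.19 (called as higher) under quantile normalization and -0.064 and 0.0025 with own-total scaling (neither called). The ClpP cKO call was lost without Control 1 (-0.23) or ClpP cKO 3 (-0.23). Ndufa13 (ENSMUSG00000036199, chromosome 8, 69894180 to 69902558, reverse strand), a membrane-spanning subunit also known as GRIM-19, was at 50.7, 40.03 and 29.2 FPKM in the control libraries, 22.8, 28.7 and 31.2 in ClpP cKO and 23.2, 26.03 and 26.2 in ClpX cKO. The controls were far apart, and Control 3 lay within the ClpP cKO range. It fell by 0.62 (SE of 0.19 and adjusted p of 0.018) in ClpX cKO, against -0.50 ± 0.19 (SE; limma adjusted p = 0.058) in ClpP cKO. The ClpX cKO value was -0.29 under quantile normalization and -0.40 with own-total scaling, and the call was lost under both as well as without Control 1 (-0.43) or ClpX cKO 1 (-0.56). Its exons share 375 bases with Tssk6, a kinase gene of spermatids, on the other strand. Tssk6 was at 206, 222 and 89.5 FPKM in the control libraries, 80.2, 55.99 and 63.8 in ClpP cKO and 31.2, 21.7 and 22.1 in ClpX cKO, a log2 change of -1.27 and -2.65, and how many Ndufa13 reads come from it was not tested. The other 3 members of the arm apart from Ndufa1, which are Ndufa3, Ndufa8 and Ndufs5, were not called, at -0.04 to 0.13 in ClpP cKO and 0.01 to 0.30 in ClpX cKO.

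Ndufa1 and Ndufb11 are the X-linked members, and both were highest in ClpX cKO. Ndufa1 (ENSMUSG00000016427, chromosome X, 37187588 to 37191163, reverse strand), a small single-span subunit of the proximal arm, was at 31.3, 19.5 and 25.4 FPKM in the control libraries, 19.5, 31.3 and 32.05 in ClpP cKO and 37.3, 40.4 and 47.8 in ClpX cKO. The ClpX cKO libraries lay above all others, whereas the ClpP cKO and control ranges overlapped. It rose by 0.71 ± 0.22 (SE; limma adjusted p = 0.018) in ClpX cKO, a call lost without Control 2 (0.54) or ClpX cKO 3 (0.61), and the value in ClpP cKO was 0.11 ± 0.22 (SE; limma adjusted p = 0.7). Ndufb11 (ENSMUSG00000031059, chromosome X, 20615326 to 20617619, reverse strand), a single-span subunit of the distal arm, was at 13.1, 11.5 and 8.73 FPKM in the control libraries, 13.3, 12.5 and 12.7 in ClpP cKO and 14.2, 15.5 and 20.01 in ClpX cKO. ClpX cKO 3 stood above its 2 replicates. It rose by 0.54 ± 0.15 (SE; limma adjusted p = 0.013) in ClpX cKO, kept under all 21 alternatives, with 0.20 ± 0.15 (SE; limma adjusted p = 0.29) in ClpP cKO. Both rest on few reads, 125 to 342 per library for Ndufa1 and 108 to 310 for Ndufb11. Of 526 X-linked protein-coding genes tested, 326 rose and 114 fell in ClpX cKO (median log2 change 0.53) and 196 rose and 87 fell in ClpP cKO (median 0.28). Of all 12827 protein-coding genes tested, 5138 rose and 3912 fell in ClpX cKO (median 0.11). In ClpP cKO 3306 of them rose and 3017 fell (median 0.077).

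In the distal membrane arm, 1 of 9 tested members fell in ClpP cKO, and 1 rose (Ndufb11) and 1 fell in ClpX cKO. Among all genes 44.7% and 65.6% were called. Ndufb4 (ENSMUSG00000022820, chromosome 16, 37647170 to 37654453, reverse strand) was at 16.8, 15.5 and 16.2 FPKM in the control libraries, 14.03, 14.2 and 13.4 in ClpP cKO and 14.4, 14.1 and 14.99 in ClpX cKO. All 6 knockout libraries were below the controls. It fell by 0.21 (SE of 0.06 and adjusted p of 0.023) in ClpP cKO, with -0.15 ± 0.06 (SE; limma adjusted p = 0.054) in ClpX cKO, where own-total scaling gave 0.064. The ClpP cKO call was lost under quantile normalization (-0.13), own-total scaling (-0.035) and voom on recovered reads (-0.22), and without Control 1 (-0.18), Control 3 (-0.21), ClpP cKO 2 (-0.22) or ClpP cKO 3 (-0.18). Its processed copy Ndufb4c, identical over 390 bases, was at 2.69, 3.19 and 4.70 FPKM in the control libraries, 1.49, 1.98 and 1.85 in ClpP cKO and 3.50, 2.05 and 2.25 in ClpX cKO. Ndufb5 (ENSMUSG00000027673, chromosome 3, 32736990 to 32751566, forward strand) was at 14.7, 16.04 and 16.4 FPKM in the control libraries, 14.7, 15.4 and 14.9 in ClpP cKO and 14.1, 13.5 and 13.1 in ClpX cKO. The ClpX cKO libraries were the lowest 3. It fell by 0.20 (SE of 0.06 and adjusted p of 0.022) in ClpX cKO, with -0.06 ± 0.06 (SE; limma adjusted p = 0.42) in ClpP cKO, but was at -0.11 under quantile normalization and 0.012 with own-total scaling, neither called. Leaving out Control 2 (-0.19), Control 3 (-0.17), ClpX cKO 2 (-0.19) or ClpX cKO 3 (-0.18) also ended the call. Its exons share 616 bases with Mrpl47 on the other strand, a mitochondrial ribosomal protein gene that was at 9.77, 9.66 and 8.02 FPKM in the control libraries, 7.46, 7.29 and 6.43 in ClpP cKO and 7.10, 6.33 and 6.70 in ClpX cKO and fell in both (-0.33 and -0.39). The other 6 tested members of the arm were not called, at -0.18 to 0.12 in ClpP cKO and -0.14 to 0.33 in ClpX cKO.

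**Figure D3:**
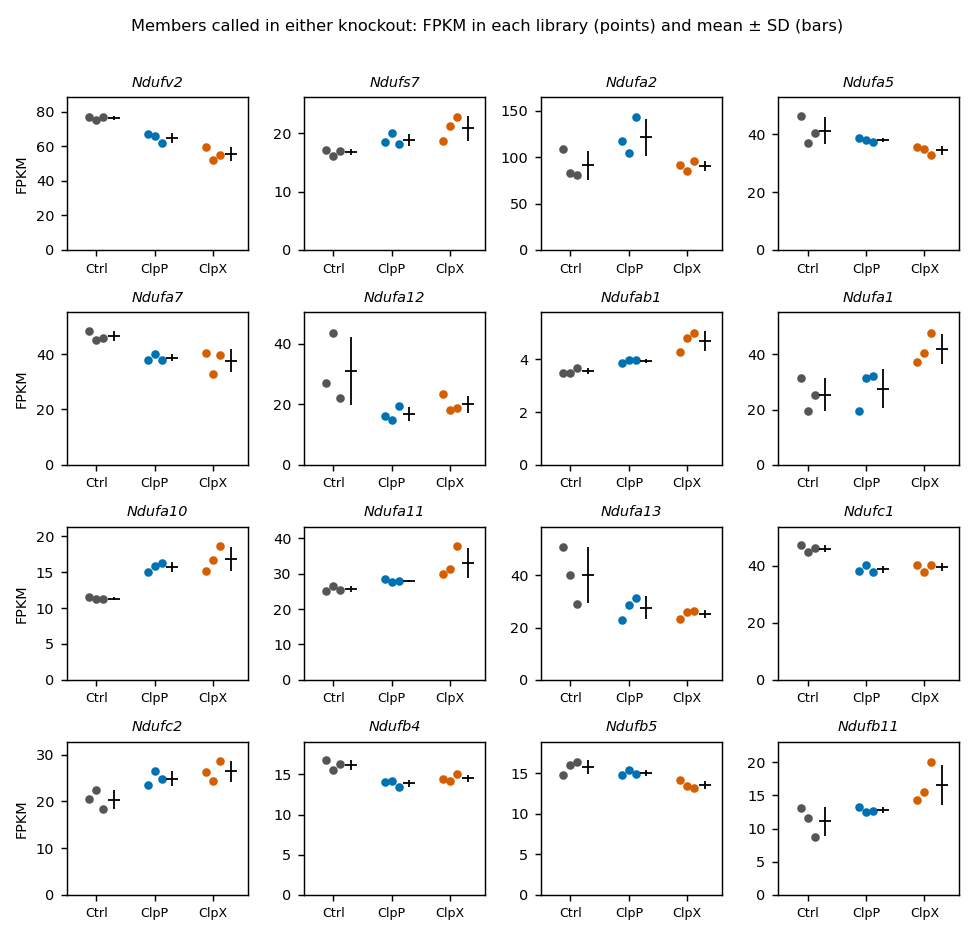
FPKM of the 16 members called in either knockout, in each control (grey), ClpP cKO (blue) and ClpX cKO (orange) library, with mean ± SD (black bars, n = 3); every y axis starts at 0. All controls of Ndufa10 lie below its knockout libraries, while the controls of Ndufa12 and Ndufa13 spread widely.

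Called in ClpX cKO against ClpP cKO were 0 of 34 members in limma, where 0.104% of all genes (18) were called, and 6 members had an unadjusted p under 0.05. These were Ndufa1 (0.61, SE 0.22), Ndufa2 (-0.40, SE 0.14), Ndufv2 (-0.22, SE 0.07), Ndufa11 (0.23, SE 0.09), Ndufb3 (0.28, SE 0.12) and Ndufab1 (0.20, SE 0.08), with adjusted p from 0.10 to 0.17. Ranges of the knockouts were fully separate for 8 of 34 members, against 29.9% of all genes, and the median change was 0.066 (all genes -0.0088). ClpX cKO 1 decided this count: without it 6 members were called (Ndufv2 -0.27, Ndufs8 0.32, Ndufa11 0.29, Ndufb3 0.37, Ndufs7 0.21 and Ndufab1 0.26), as were 27.6% of all genes. Under the other alternatives that kept ClpX cKO 1, voom on recovered reads included, the count was 0. The members were thus not shown to differ between the knockouts, nor to be alike.

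The summed level of the nuclear subunits was similar in the 3 groups on the deposited scale and higher in the knockouts as a share of reads, whereas 6 or 7 of the 7 genes of the mitochondrially encoded subunits rose in each knockout on each of these scales. The 35 members summed to 1064, 993 and 948 FPKM in the controls, 939, 991 and 1020.2 in ClpP cKO and 965, 973 and 1046 in ClpX cKO. Means were 1002 ± 58.8, 983 ± 41.0 and 995 ± 44.7 (SD, n = 3 each), and neither knockout differed from control beyond the spread (exact two-sided permutation p = 0.6 and 0.8, where 0.1 is the smallest this design allows). The 7 mitochondrially encoded subunits, the proton-pumping core of the membrane arm, summed to 3295 ± 94.9, 5210.1 ± 194 and 9195 ± 845 FPKM, with no overlap between groups (exact p = 0.1 each). Their ratio to the nuclear subunits, in which the scale between libraries cancels, was 3.30 ± 0.26 in control, 5.30 ± 0.20 in ClpP cKO and 9.24 ± 0.64 in ClpX cKO, 1.61-fold and 2.80-fold higher (exact p = 0.1 each). All 7 mitochondrial genes rose in ClpX cKO (median log2 change 1.56) and 6 of 7 in ClpP cKO (median 0.64), the exception being mt-Nd4l at 0.45 ± 0.21 (SE; limma adjusted p = 0.11). Under quantile normalization 7 and 6 were called and with own-total scaling all 7 in both. Among all genes, 65.6% were called in ClpX cKO and 44.7% in ClpP cKO on the deposited scale. These shares were 64.3% and 38.8% under quantile normalization, and 67.4% and 48.6% with own totals.

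**Figure D4:**
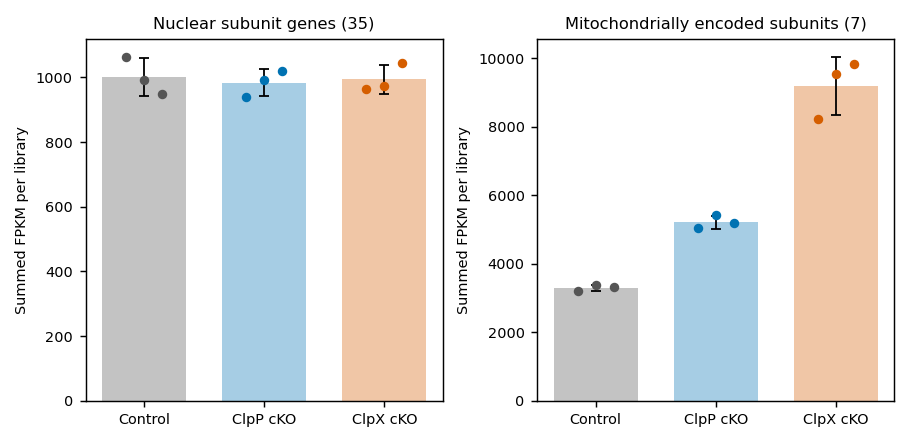
Summed FPKM of the 35 nuclear (left) and 7 mitochondrially encoded (right) complex I subunit genes per library (points), with group mean (bars, from 0) and SD (n = 3). The nuclear sums lie between 939 and 1064 in all groups, while the mitochondrial sums rise from control to ClpP cKO to ClpX cKO without overlap.

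The nuclear sum depended on how libraries are scaled. The deposited FPKM divides by a library factor proportional to the median-of-ratios size factor. Relative to the total of gene reads, this factor stood at 0.919 ± 0.028 in control, 1.05 ± 0.0037 in ClpP cKO and 1.07 ± 0.017 in ClpX cKO (SD, n = 3). As a plain share of gene reads, the members took 0.149%, 0.143% and 0.146% in control, 0.154%, 0.162% and 0.163% in ClpP cKO and 0.159%, 0.164% and 0.173% in ClpX cKO. On that scale all 6 knockout libraries lay above every control (1.09-fold and 1.13-fold, exact p = 0.1 each). Scaled to own totals, 7 members were called higher and 1 lower in ClpP cKO and 18 higher and 1 lower in ClpX cKO, with member medians of 0.17 and 0.22 where the median of all genes moved to 0.16 and 0.18 and 48.6% and 67.4% of them were called. Under quantile normalization the counts were 7 higher and 1 lower, and 20 higher and 0 lower, with medians of 0.16 and 0.29 against 0.076 and 0.094 for all genes, of which 38.8% and 64.3% were called. Of the 6 decreases called in ClpX cKO on the deposited scale, none was called as lower under quantile normalization and Ndufv2 alone with own totals.

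**Figure D5:**
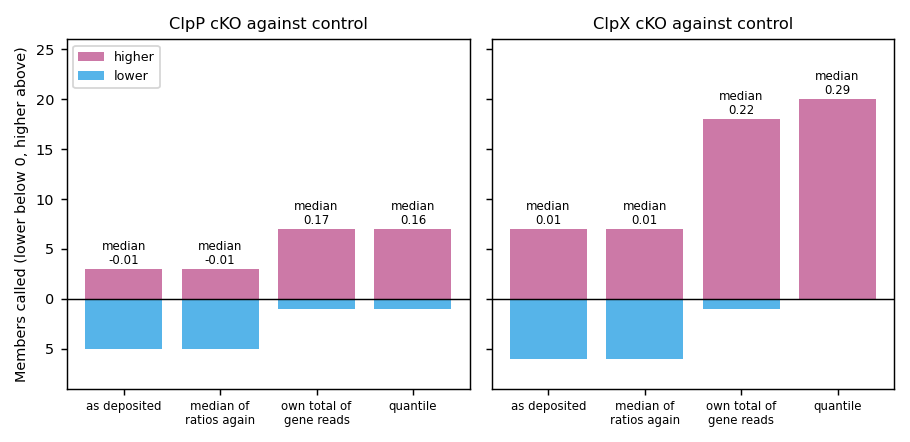
Number of tested members called higher (pink, above 0) and lower (light blue, below 0) in each knockout against control under 4 scalings between libraries, with the median log2 change of the members above each bar. The balance of 7 higher and 6 lower in ClpX cKO on the deposited scale becomes 18 and 1 with own totals and 20 and 0 under quantile normalization.

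The 16 listed assembly factors, which build the complex but are not part of it, changed in both directions: 4 rose and 2 fell in ClpP cKO, and 6 rose and 2 fell in ClpX cKO. Of all genes tested, 44.7% and 65.6% were called in these comparisons. With own-total scaling the counts were 10 up and 0 down, and 12 up and 1 down. Under quantile normalization they were 4 up and 0 down, and 7 up and 1 down. The shares of all genes called were 48.6% and 67.4% with own totals, and 38.8% and 64.3% under quantile normalization. Timmdc1, a membrane-arm assembly factor, was at 6.26, 6.61 and 6.66 FPKM in the control libraries, 8.18, 10.3 and 10.1 in ClpP cKO and 9.32, 11.5 and 10.6 in ClpX cKO. Ndufaf4, which acts on the matrix arm, was at 1.23, 1.51 and 1.49 FPKM in the control libraries, 2.30, 2.36 and 2.38 in ClpP cKO and 2.22, 2.61 and 2.72 in ClpX cKO. For both, every knockout library was above every control. Timmdc1 rose by 0.48 and 0.60 and Ndufaf4 by 0.47 and 0.54 in ClpP and ClpX cKO (adjusted p from 0.0011 to 0.011), kept under all alternatives in which they were tested. Ndufaf6 rose by 0.81 ± 0.11 (SE; limma adjusted p = 5.3e-04) in ClpX cKO, and Tmem126b (0.39), Tmem70 (0.36) and Acad9 (0.33) rose there too. Ndufaf3 fell by 0.44 (SE of 0.08 and adjusted p of 0.0017) in ClpX cKO, but stood at 0.14 and was not called under quantile normalization. Nubpl, which delivers iron-sulfur clusters to the complex, was at -0.31 and -0.34, both called. In ClpX cKO its call was lost with own-total scaling, with no filter on low values, and without Control 2, ClpX cKO 2 or ClpX cKO 3. The call of Acad9 was lost with no filter and with only the 6 libraries compared. It was also lost without any 1 of Control 1, Control 2, ClpP cKO 1, ClpP cKO 2, ClpX cKO 2 and ClpX cKO 3. Over all alternatives Nubpl ran from -0.52 to -0.19 and Acad9 from 0.24 to 0.51 there. In ClpP cKO, Ndufaf6 (0.37), Tmem70 (0.26) and Ndufaf3 (-0.23) were called as well. With Nubpl, each of these calls was lost without Control 1 and in at least 3 other single-library omissions, over ranges of 0.29 to 0.62, 0.22 to 0.43, -0.29 to 0.21 and -0.46 to -0.18, and Ndufaf3 lay above 0 under quantile normalization. The ClpP cKO calls of Nubpl and Ndufaf3 were lost both under quantile normalization and with own-total scaling.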

How the data were processed

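RNA sequencing was analysed from 9 libraries (3 control, 3 ClpP cKO and 3 ClpX cKO), each made from 1.3 ug of total RNA, per the labels' protocols. The deposited table holds FPKM per gene with gene length, coordinates and biotype, per the file headers; the builds named are GRCm38 and mm10, per the submitters' processing notes. The aligner, counter and strand setting are not given in the sources used here. Multiplying the deposited FPKM by gene length gave whole multiples of 1 read for 100% of values (tolerance 0.01 of a read step), 14334436 to 17021685 reads per library, and the authors' library factors were proportional to median-of-ratios size factors (25066 genes, largest deviation 2.7e-08). Log2(FPKM + 1) of the 17266 genes with mean FPKM of at least 1 was fitted over all 9 libraries in limma 3.58.1 (R 4.3.3, empirical Bayes with trend; 6 residual degrees of freedom), with Benjamini-Hochberg adjustment over all genes and a threshold of 0.05. Sums were compared by exact permutation tests over libraries. The scripted fit was tested on simulated data. Promoters and gene names came from RefSeq, exon overlaps from GENCODE M21, and near copies (at least 95% identity over at least 150 bases) from blastn 2.17.0. The 21 alternatives covered pseudocount, filter, scaling, samples fitted, replicate block, variance prior, gene set, voom on recovered reads and libraries left out. Values per library are given for every member called in either knockout, the 4 highest and 4 lowest by mean FPKM, and Ndufa1 and Ndufb11, and called genes of other lists may be named. Members and lists were chosen with earlier results of these data known. The promoter of Ndufa2 was not used here, and Ndufs1 and Ndufb9 had no entry among the promoters searched.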

Additional observations from a re-analysis of the deposited data

Results flagged for a closer look

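Of the 7 mitochondrially encoded subunit genes, 2 were called as higher in ClpX cKO than in ClpP cKO, tested directly in limma. The other 5 had adjusted p from 0.050 to 0.081. In this comparison 18 of all 17266 genes (0.104%) were called. mt-Nd1 was higher by 0.82 on the log2 scale (adjusted p = 0.039), with mean FPKM of 1136 in control, 1895 in ClpP cKO and 3347 in ClpX cKO. mt-Nd2 was higher by 0.90 (adjusted p = 0.030). The calls were lost under 11 and 9 of the 21 alternatives, among them leaving out any 1 library other than Control 3 and ClpX cKO 1. Over the alternatives mt-Nd2 ran from 0.64 to 0.99 and mt-Nd1 from 0 to 0.87, with the 0 under quantile normalization.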

How the results depend on the processing

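In ClpP cKO 8 members were called, 3 with no filter on low values and 2 to 8 when 1 library was left out. The shares of all genes called moved as well, from 44.7% to 13.3% with no filter and 20.9% to 50.6% with 1 library left out. The 13 calls in ClpX cKO became 20 under quantile normalization and ranged from 10 to 15 when 1 library was left out. The shares of all genes there were 65.6%, 64.3% and 56.9% to 68.2%. In ClpX cKO against ClpP cKO the count of 0 ranged from 0 to 6 with 1 library left out. It was 5 without Control 3 and ClpX cKO 1. The shares of all genes for these were 0.104%, 0% to 27.6%, and 29.8%. Median changes moved to 0.16 (ClpP cKO), 0.29 (ClpX cKO) and 0.15 (between the knockouts) under quantile normalization, and to 0.17 and 0.22 in the knockouts with own-total scaling. Of 34 members, 10 and 9 lay on the other side of 0 under quantile normalization in ClpP and ClpX cKO, and 11 and 10 with own-total scaling. Among these, members called on the deposited or the other scale were, under quantile normalization in ClpP cKO, Ndufv2 (0.11), Ndufs5 (0.26), Ndufa9 (0.27), Ndufc1 (0.044) and Ndufa7 (0.028), and in ClpX cKO Ndufb10 (0.28), Ndufa9 (0.30), Ndufc1 (0.19), Ndufa7 (0.094), Ndufa5 (0.12), Ndufs3 (0.28) and Ndufa6 (0.22). With own-total scaling there were 0 such members in ClpP cKO, and in ClpX cKO they were Ndufc1 (0.0025), Ndufs3 (0.19), Ndufa6 (0.18) and Ndufb5 (0.012). The cause was not tested. After group means were subtracted, same-numbered libraries of different groups correlated at -0.07 to 0.234 and differently numbered ones at -0.24 to 0.11. No label says that the numbers pair the samples, and the main fit did not pair them. With the replicate block 7, 13 and 0 members were called, the call lost being that of Ndufc2 in ClpP cKO (0.28, limma adjusted p = 0.060). The shares of all genes called with the block were 45.4%, 65.4% and 0.0058%. Depth limits Ndufb2, at 49 to 84 reads per library.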

Other observations

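Of 8 other tested genes whose symbols begin with Nduf, 1 rose and 2 fell in ClpP cKO, and 1 rose and 3 fell in ClpX cKO. The shares of all genes called were 44.7% and 65.6%. Ndufa4, now assigned to cytochrome c oxidase, rose by 0.53 and 0.88 on the log2 scale. The call in ClpX cKO was kept under all 21 alternatives, and that in ClpP cKO was lost under 5 (without Control 1, Control 3, ClpP cKO 2 or ClpP cKO 3, or with no filter; range 0.44 to 0.69). Ndufb1-ps was at -0.39 and -0.44, both called. Both calls were lost under quantile normalization and own-total scaling, and that in ClpP cKO also without Control 1, ClpP cKO 2 or ClpP cKO 3 (highest values -0.21 and -0.22). The pseudogene Ndufb4c was at -0.69 in ClpP cKO, a call lost under 6 of 19 alternatives (without Control 3 or any ClpP cKO library, with no filter, or with voom on recovered reads; range -0.94 to -0.51). In ClpX cKO Ndufa4l2 was at -1.07 and the pseudogene Ndufa11b at -1.27, both called under every alternative in which they were tested.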
